A study of Mus musculus with 14 samples.

Results

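*Gpnmb* and the transcription factor genes *Mitf*, *Tfeb* and *Tfe3* were followed through 14 mRNA libraries of 4T1 tumor spheroids. They were taken by gene symbol from the count table and make up 4 of its 19525 genes. *Gpnmb* had been selected on its measured rise in ASP shDHPS against ASP shSCR, so its values in the ASP shDHPS libraries are given as a description, without a test. The other 3 genes were selected as the family that is known to drive *Gpnmb*. 4T1 is a mouse triple-negative mammary carcinoma line. Every library came from cells that carry a lentiviral hairpin and were kept under puromycin selection as a mixed population, grown as spheroids on soft agar for 5 days in a medium that resembles lung interstitial fluid. The control hairpin was a scrambled sequence, and these spheroids received 700 µM aspartate in 1 group (named ASP shSCR, n = 4) and none in another (named NoASP shSCR, n = 3). The 2 knockdown groups both received aspartate. In one the hairpin targeted *Grin2d*, which encodes an NMDA receptor subunit (named ASP shGRIN2D, n = 3), in the other *Dhps*, the enzyme that begins the hypusination of eIF5A (named ASP shDHPS, n = 4). Each knockdown is 1 hairpin in a tumor cell culture, without the host cells of a lung.

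MiT/TFE proteins are basic helix-loop-helix leucine zipper factors that bind DNA as dimers, with each other included. In cells with ample amino acids, mTORC1 at the lysosome phosphorylates them through the Rag GTPases and 14-3-3 proteins hold them in the cytoplasm, whereas starved or stressed lysosomes release them to the nucleus. There they bind the palindromic E-box of the CLEAR element and raise genes for lysosomal enzymes, the proton pump and autophagy. GPNMB is a transmembrane glycoprotein of melanosomes, late endosomes and lysosomes, a known MITF and TFE3 target, and a marker of stressed lysosomes in macrophages and of aggressive breast tumors. Much of the control of these factors acts on the protein, which mRNA counts do not show.

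The promoter of *Gpnmb* is shown because the factors act through sequences of this kind. It is the RefSeq window of 250 bases before to 50 bases after the start site, chr6:49036268-49036567 in GRCm38.p6, plus strand, with capitals for 2 matches to the general E-box CANNTG and for an AP-1 sequence that overlaps the second.
Gpnmb promoter: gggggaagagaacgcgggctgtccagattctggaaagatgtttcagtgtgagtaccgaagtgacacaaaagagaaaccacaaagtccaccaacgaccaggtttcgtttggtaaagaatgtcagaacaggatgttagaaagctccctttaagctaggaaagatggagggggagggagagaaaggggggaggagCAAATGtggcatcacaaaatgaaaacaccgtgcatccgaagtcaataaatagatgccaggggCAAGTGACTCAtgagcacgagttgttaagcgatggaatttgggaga
The first match, CAAATG, begins 58 bases before the start site. The second, CAAGTG, lies at the start of the transcript and runs into the AP-1 sequence TGACTCA, with which it shares letters. The palindrome CACGTG was not found on either strand of this window, and neither was the longer CLEAR form GTCACGTG. The hexamer CATGTG, a form bound by MITF, and its longer version TCATGTGA were not found either. They were also absent from the 3 *Mitf*, the 3 *Tfeb* and the 2 *Tfe3* windows of the same length. Of all 32851 promoters in the table, 7.15% held CACGTG, 2.25% GTCACGTG, 14.2% CATGTG, 0.986% TCATGTGA, 72.3% CANNTG and 5.2% TGACTCA. The last 2 of these motifs were searched after the sequence had been seen. A general E-box is thus a common feature of such windows.

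*Mitf* has several start sites, and the third of its RefSeq windows is shown because it holds the cAMP response element TGACGTCA, the sequence recognized by CREB (capitals, 153 bases before the start site). This window is chr6:97991533-97991832 in GRCm38.p6, plus strand.
Mitf promoter 3: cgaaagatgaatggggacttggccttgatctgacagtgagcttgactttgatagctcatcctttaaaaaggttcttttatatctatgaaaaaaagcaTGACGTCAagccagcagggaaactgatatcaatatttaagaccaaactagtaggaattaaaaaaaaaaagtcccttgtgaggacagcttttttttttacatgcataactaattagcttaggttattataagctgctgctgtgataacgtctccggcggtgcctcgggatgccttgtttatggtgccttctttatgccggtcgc
TGACGTCA was also searched after the sequence had been seen, on both strands, and stood in 1.79% of all promoters. The counts are summed per gene and do not tell which *Mitf* start site was used.

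For comparison, 4 known targets that were higher in ASP shDHPS held the palindrome, given below with 12 bases on either side and CACGTG in capitals, in the direction of the gene. These genes are *Ctsa*, a protective protein and carboxypeptidase of the lysosome, *Gla*, alpha-galactosidase A, *Lamp1*, a major lysosomal membrane glycoprotein, and *Atp6v0b*, a membrane subunit of the proton pump.
Ctsa, chr2:164833749-164833778, plus strand: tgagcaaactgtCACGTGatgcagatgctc
Gla, chrX:134601182-134601211, minus strand: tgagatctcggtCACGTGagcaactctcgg
Lamp1, chr8:13159121-13159150, plus strand: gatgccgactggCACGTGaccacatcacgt
Atp6v0b, chr4:117887348-117887377, minus strand: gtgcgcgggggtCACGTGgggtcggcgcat
Each of the 4 windows shown holds GTCACGTG on one strand. These promoters hold further CACGTG matches that are not shown. The further match in *Ctsa* also holds GTCACGTG, while those in *Gla*, *Lamp1* and *Atp6v0b* do not. Of 14 targets higher in ASP shDHPS, 10 had a promoter in the table and 4 of these held CACGTG. Counted by promoter, 33.3% of their 12 promoters held CACGTG and 33.3% GTCACGTG. Among the 42 promoters of 38 measured known targets, 38.1% held CACGTG and 31.0% GTCACGTG. The list of known targets was itself drawn up in part from this sequence, so these shares are no independent result.

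Total counts lay between 12731123 and 23231378 per library, and the 4 genes were counted 138 to 1853 times in each. *Dhps* was at 5.46 to 9.08 CPM (reads of a gene relative to the scaled library total, the usual CPM unit) in ASP shDHPS against 16.7 to 22.1 CPM in ASP shSCR and fell by 1.48 on the log2 scale (SE 0.15, adjusted p = 8.3e-06). *Grin2d* was scarce, at 2.06, 2.17 and 3.13 CPM in ASP shGRIN2D against 3.23 to 4.16 CPM in ASP shSCR, a log2 difference of -0.55 (SE 0.28) that did not pass the test (adjusted p = 0.516). Replicate 2 of ASP shSCR and of NoASP shSCR stood apart from the other libraries on the first principal component, at 45.8 and 33.5. The other shSCR libraries lay between -9.37 and 14.8 and the ASP shGRIN2D libraries between 0.974 and 9.26. At the opposite end lay the ASP shDHPS libraries, between -37.4 and -21.1. Genes are described as called where edgeR's quasi-likelihood test, adjusted over all genes, gave a p under 0.05. In ASP shDHPS against ASP shSCR 824 genes were called. Over the fits without 1 library this ranged from 412 (without ASP shSCR replicate 2) to 894 (without ASP shDHPS replicate 4). The methods of the study describe independent pellets of spheroids for the polysome gradients, of which these lysates were the input. The labels do not say more on what separates the replicates.

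*Gpnmb* was lowest in the control with aspartate and highest after *Dhps* knockdown. In ASP shSCR its level was 11.1, 16.4, 13.8 and 15.9 CPM in replicates 1 to 4. In NoASP shSCR it was 12.6, 22.5 and 24.3 CPM in replicates 2 to 4. In ASP shGRIN2D it was 27.4, 32.1 and 35.6 CPM, and in ASP shDHPS 51.9, 60.6, 73.4 and 73.0 CPM. The control groups overlapped through NoASP shSCR replicate 2, while every ASP shGRIN2D library lay above every control library and every ASP shDHPS library above all others. The group means were 14.3 ± 2.45 CPM (SD, n = 4) in ASP shSCR, 19.8 ± 6.31 (SD, n = 3) in NoASP shSCR, 31.7 ± 4.11 (SD, n = 3) in ASP shGRIN2D and 64.7 ± 10.4 (SD, n = 4) in ASP shDHPS. In bulk RNA, more cells with *Gpnmb* and more *Gpnmb* RNA per cell cannot be told apart.

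**Figure D1:**
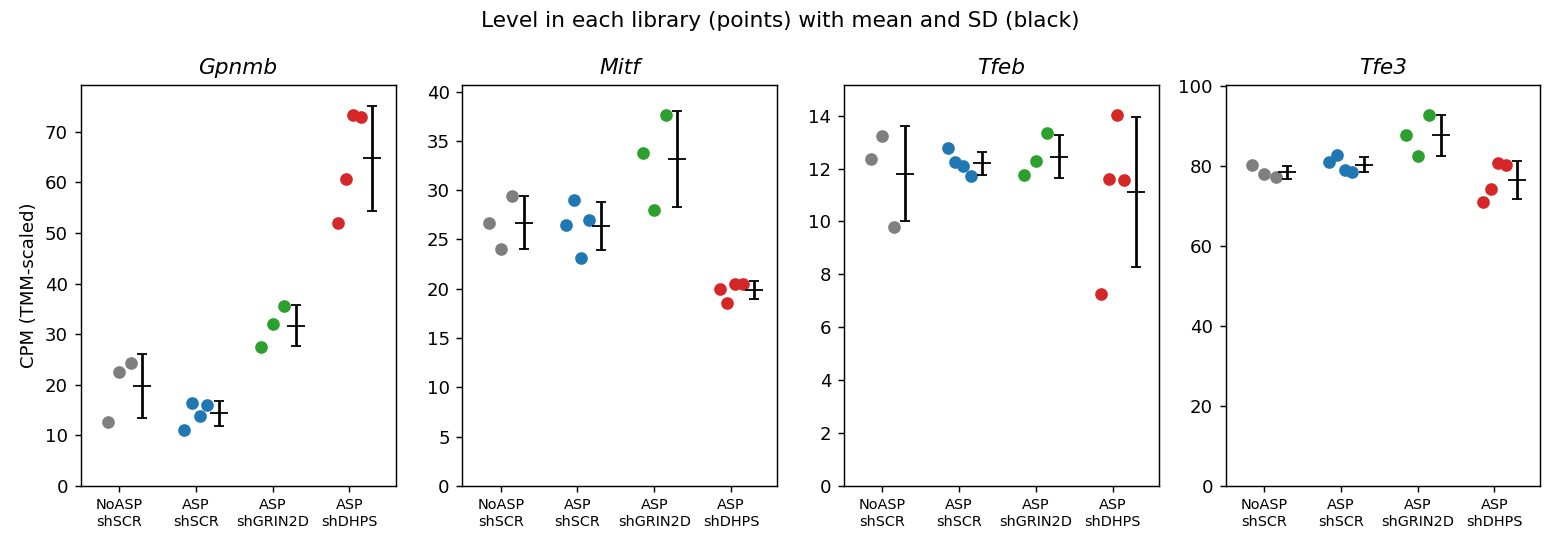
Level of each gene in CPM (vertical axes from 0, one scale per gene) in the 14 libraries by group (points), with the group mean and SD in black. *Gpnmb* runs from 11.1 CPM in the lowest ASP shSCR library to 73.4 CPM in the highest ASP shDHPS library, with overlap between both control groups only. Over all libraries *Mitf* runs from 18.6 to 37.7 CPM, *Tfeb* from 7.25 to 14.04 CPM and *Tfe3* from 71.0 to 92.9 CPM.

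Against ASP shSCR, *Gpnmb* rose 2.22-fold in ASP shGRIN2D, a log2 fold change of 1.15 (SE 0.18, 95% interval 0.78 to 1.53, adjusted p = 0.00122). This comparison did not enter the choice of the gene, but it shares the ASP shSCR libraries with the one that did. Over the alternatives the log2 fold change stayed between 1.04 and 1.25, with an adjusted p of at most 0.0134. Of all genes, 1.16% were called in this comparison, 0.425% higher and 0.732% lower. In the aspartate comparison, which shares the same ASP shSCR libraries, *Gpnmb* was at -0.48 with aspartate relative to without (SE 0.18, 95% interval -0.86 to -0.09), which did not pass (unadjusted p = 0.0170, adjusted p = 1). Leaving out NoASP shSCR replicate 2 moved this value to -0.72, leaving out NoASP shSCR replicate 4 to -0.30, and leaving out both shSCR libraries numbered 2 to -0.80 (adjusted p = 0.536). Without pairing, no gene was called for aspartate (0% of 19525) by edgeR or by DESeq2, and 424 had an unadjusted p under 0.05. With the replicate number as a block, edgeR called 2 genes over the 14 libraries and 64 (40 higher, 24 lower) in the control groups alone. *Gpnmb* was not among them, at -0.34 (adjusted p = 1) and -0.32 (adjusted p = 0.457).

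In the comparison that served to choose it, *Gpnmb* was 4.55-fold higher in ASP shDHPS than in ASP shSCR, a log2 difference of 2.19 (SE 0.17). Against ASP shGRIN2D, with the same ASP shDHPS libraries, it was 2.05-fold higher, a log2 difference of 1.03 (SE 0.17). Within groups *Gpnmb* varied more than most genes. Its SD within groups was 0.31 on the log2 CPM scale, and 95.2% of the 10224 genes that averaged 5 CPM or more had a smaller one.

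*Mitf*, the melanocyte and osteoclast factor of the family, was the member that differed between the knockdowns. It measured 26.5, 29.0, 23.1 and 26.9 CPM in ASP shSCR, and 26.7, 24.0 and 29.4 CPM in NoASP shSCR. The ASP shGRIN2D libraries held 33.8, 27.9 and 37.7 CPM, and the ASP shDHPS libraries 20.0, 18.6, 20.5 and 20.4 CPM. All 4 ASP shDHPS libraries lay below every other library, and ASP shGRIN2D replicate 2 lay within the control range. Between the knockdowns *Mitf* fell in ASP shDHPS relative to ASP shGRIN2D, with a log2 fold change of -0.74 (SE 0.12, 95% interval -0.98 to -0.49, adjusted p = 0.000663), and it stayed past the threshold in all 16 alternatives. In this comparison 2.82% of all genes were called, 1.2% higher and 1.62% lower.

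Against ASP shSCR the *Mitf* difference was smaller in either knockdown. It was 0.33 in ASP shGRIN2D (SE 0.12, 95% interval 0.09 to 0.57) and did not pass (adjusted p = 0.243). In ASP shDHPS it was -0.41 (SE 0.11, 95% interval -0.63 to -0.18, adjusted p = 0.0354), in a comparison where 4.22% of all genes were called, 1.65% higher and 2.57% lower. That call rested on the full set of libraries. It was lost on leaving out any 1 of the 8 libraries except ASP shSCR replicate 3, with log2 fold changes from -0.47 to -0.36 over the 8 fits and an adjusted p of up to 0.119. For aspartate the difference was -0.02 (95% interval -0.26 to 0.22). *Mitf* overlaps *Gm15531* on the opposite strand; the libraries were stranded, but the strand setting of the counting is not given in the sources used here.

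*Tfeb*, the family's best-known regulator of lysosome formation, was the scarcest factor. Its levels were 12.8, 12.3, 12.1 and 11.7 CPM in ASP shSCR, and 12.4, 13.2 and 9.79 CPM in NoASP shSCR. They were 11.7, 12.3 and 13.3 CPM in ASP shGRIN2D, and 7.25, 11.6, 14.04 and 11.6 CPM in ASP shDHPS. The ASP shDHPS libraries spanned both the lowest and the highest value of all 14. The SD of *Tfeb* within groups was 0.25 (log2 CPM scale), and 87.4% of genes that averaged 5 CPM or more had a smaller one. No difference passed the test, with log2 fold changes of 0.05 for aspartate, 0.03 in ASP shGRIN2D and -0.14 in ASP shDHPS against ASP shSCR. The 95% interval of the last ran from -0.46 to 0.18, so a difference of any size within these bounds is compatible with these data.

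*Tfe3*, a broadly expressed member that shares many lysosomal targets with *Tfeb*, was the most abundant and the steadiest. It measured 81.0, 82.8, 79.0 and 78.6 CPM in ASP shSCR, 80.4, 78.0 and 77.2 CPM in NoASP shSCR, 87.7, 82.7 and 92.9 CPM in ASP shGRIN2D, and 71.0, 74.4, 80.9 and 80.2 CPM in ASP shDHPS. Only 1.84% of the 10224 genes that averaged 5 CPM or more had a smaller SD within groups than its 0.066 (log2 CPM scale). The log2 difference was 0.13 in ASP shGRIN2D (95% interval -0.05 to 0.30) and -0.07 in ASP shDHPS (95% interval -0.23 to 0.09) against ASP shSCR, and 0.03 for aspartate (95% interval -0.14 to 0.21). Between the knockdowns the ranges did not overlap, with a log2 difference of -0.20 (SE 0.08) in ASP shDHPS that did not pass (adjusted p = 0.265). None of the 3 factors was called higher in any of the 4 comparisons by edgeR or DESeq2.

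**Figure D2:**
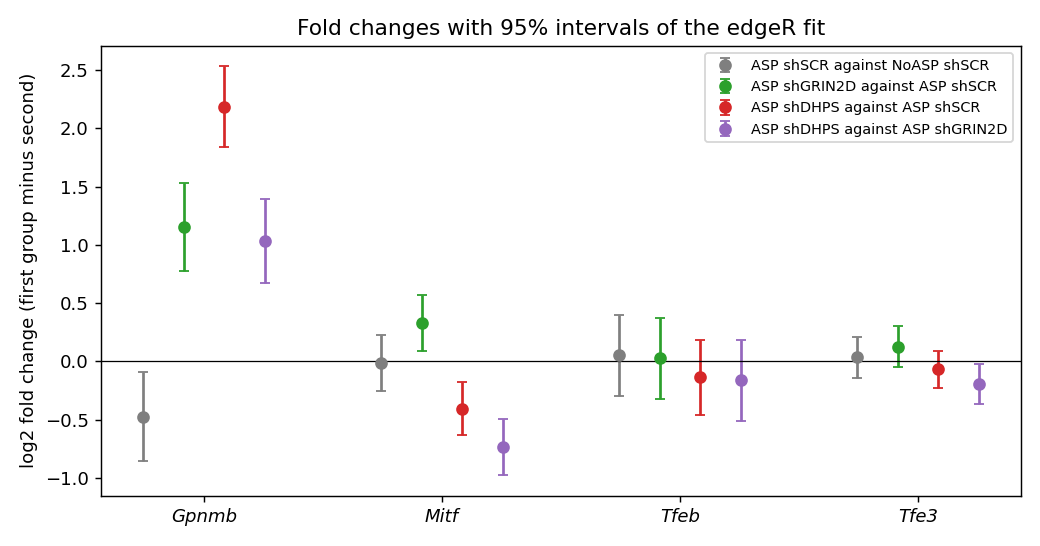
Log2 fold change (first group minus second) of each gene in the 4 comparisons, with the 95% interval of the edgeR fit as bars. *Gpnmb* reaches 2.19 in ASP shDHPS against ASP shSCR, while the values of *Mitf*, *Tfeb* and *Tfe3* stay between -0.74 and 0.33.

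Per kilobase of exon, *Tfe3* made up the largest share of the summed MiT/TFE mRNA in all 14 libraries. Its share of the summed CPM per kb lay between 54.3% and 63.0%, that of *Mitf* between 22.8% and 32.9% and that of *Tfeb* between 10.5% and 17.1%. The *Mitf* share was 28.2% ± 1.66 (SD, n = 4) in ASP shSCR, 29.0% ± 2.80 (SD, n = 3) in NoASP shSCR, 31.3% ± 2.12 (SD, n = 3) in ASP shGRIN2D and 23.9% ± 1.73 (SD, n = 4) in ASP shDHPS. The *Tfe3* share was 57.5% in ASP shSCR and 61.6% in ASP shDHPS, where the 4 libraries (60.1% to 63.0%) lay above all others. On the same scale the level of *Gpnmb* ran from 1.70 to 11.3 CPM per kb, so that it was below *Tfe3* in ASP shSCR (2.20 against 8.68) and at a similar mean in ASP shDHPS (9.94 against 8.27). *Tfec*, the other gene of the family, was not found by its symbol in the count table, so these shares leave it out. The exon length of a gene was the union of all its annotated exons. It came to 9261 bases for *Tfe3*, 6514 for *Gpnmb*, 6196 for *Mitf* and 5669 for *Tfeb*. Such a union can exceed the transcript in use, so shares and levels compared between genes depend on it.

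**Figure D3:**
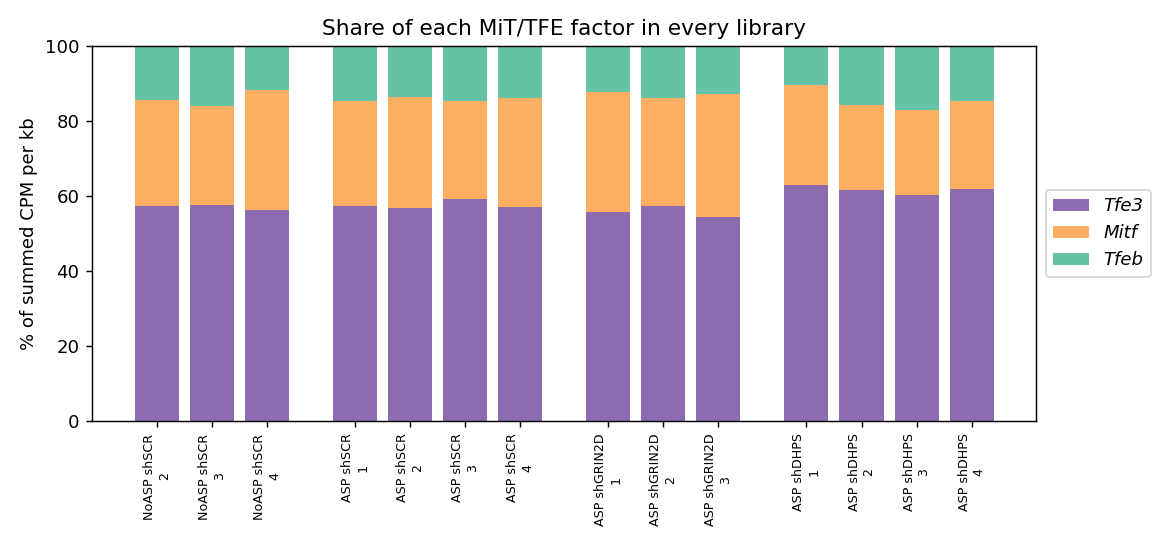
Share of *Tfe3*, *Mitf* and *Tfeb* in their summed CPM per kb of exon, as a percent, in each library (one bar per library, ordered by group and replicate number). *Tfe3* holds 54.3% to 63.0% throughout, and the *Mitf* share averages 23.9% in ASP shDHPS against 28.2% in ASP shSCR.

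Upstream of the factors, genes that hold or release them were rarely called. Of 28 measured regulators (mTORC1, Rag and Ragulator genes, folliculin and its partners, calcineurin, kinases and 14-3-3 genes), 0 were called for aspartate, 0 in ASP shGRIN2D against ASP shSCR and 0 between the knockdowns. In these 3 comparisons 0, 3 and 4 of the 28 had an unadjusted p under 0.05, and DESeq2 called 0. In ASP shDHPS against ASP shSCR, 1 of 28 (3.57%) was called, near the background of 4.22%, while 5 had an unadjusted p under 0.05 and DESeq2 called 2 higher and 1 lower. This was *Rragc*, which encodes the Rag GTPase that presents the factors to mTORC1. Its mean was 105 CPM in ASP shSCR and 129 CPM in ASP shDHPS, and it rose by 0.31 on the log2 scale (SE 0.08, adjusted p = 0.0334), but in 6 of 8 fits without 1 library it did not pass. *Rragd*, a paralog of *Rragc* and itself a MiT/TFE target, was rare. It was at 0.157 to 0.668 CPM in ASP shSCR and 1.06 to 1.47 CPM in ASP shGRIN2D, and did not pass (adjusted p = 0.146). *Flcn*, the GTPase-activating protein for RagC and RagD, was at 29.9 CPM in ASP shSCR and 36.5 CPM in ASP shDHPS (adjusted p = 0.0813).

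Downstream, 14 of 50 measured known MiT/TFE targets (28.0%) were called higher in ASP shDHPS against ASP shSCR and 0 lower (20 and 1 by DESeq2). In either direction, 31 of 50 had an unadjusted p under 0.05. Chosen after their values were seen, *Wipi1* (-0.35), *Naglu* (-0.49) and *Glb1* (-0.24) were those of the 31 with a log2 fold change below 0, and they did not pass. The background of genes called higher was 1.65% of all genes and 2.8% of genes that averaged 5 CPM or more, to which 48 of the 50 targets belong. The estimate was above 0 for 44 of 50, and the median log2 fold change was 0.23, where the median of all genes was 0.0046. The comparison is the one that led to *Gpnmb*, and the list was assembled with results of these libraries known. The steepest rises were those of *Atp6v0b*, a pump subunit, *Neu1*, lysosomal sialidase, and *Lamp1*. *Atp6v0b* went from 74.1 ± 9.59 (SD, n = 4) to 116 ± 12.6 CPM (SD, n = 4). Its log2 fold change was 0.65 (SE 0.11, adjusted p = 0.00185). *Neu1* went from 16.4 ± 1.99 (SD, n = 4) to 25.7 ± 3.27 CPM (SD, n = 4), also 0.65 (SE 0.12, adjusted p = 0.0028). *Lamp1* went from 621 ± 26.4 (SD, n = 4) to 935 ± 40.7 CPM (SD, n = 4), or 0.59 (SE 0.07, adjusted p = 9.1e-05). In each of these 3 genes the ranges of the groups did not overlap.

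By role, 8 of 19 lysosomal enzymes and activators rose, 2 of 7 lysosomal membrane genes, 2 of 11 proton pump genes, 2 of 9 genes of autophagy and vesicle fusion and 0 of 4 genes of nutrient sensing and metabolism. Chosen by role after their values were seen, the enzymes and activators besides *Neu1* included *Gla* (log2 fold change 0.54), *Hexa*, a beta-hexosaminidase subunit (0.51), *Scpep1* (0.45), *Ctsa* (0.40), *Ctsb*, the protease cathepsin B (0.38), and *Psap*, the precursor of the saposins (0.30). In the membrane, *Cd63*, a tetraspanin of late endosomes, rose by 0.46 beside *Lamp1*. The second pump gene was *Atp6v1b2*, a catalytic-sector subunit, at 0.39. The autophagy genes were *Gabarapl1* (0.33) and *Becn1* (0.32). *Mcoln1*, the lysosomal calcium channel and a much used TFEB target, was at 33.6 CPM in ASP shSCR and 36.9 CPM in ASP shDHPS, and *Sqstm1*, the autophagy receptor p62, at 887 and 938 CPM, and neither passed. Of the 14 genes, 9 kept their call in all 8 fits without 1 library, and leaving out ASP shDHPS replicate 3 lowered the count to 9.

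**Figure D4:**
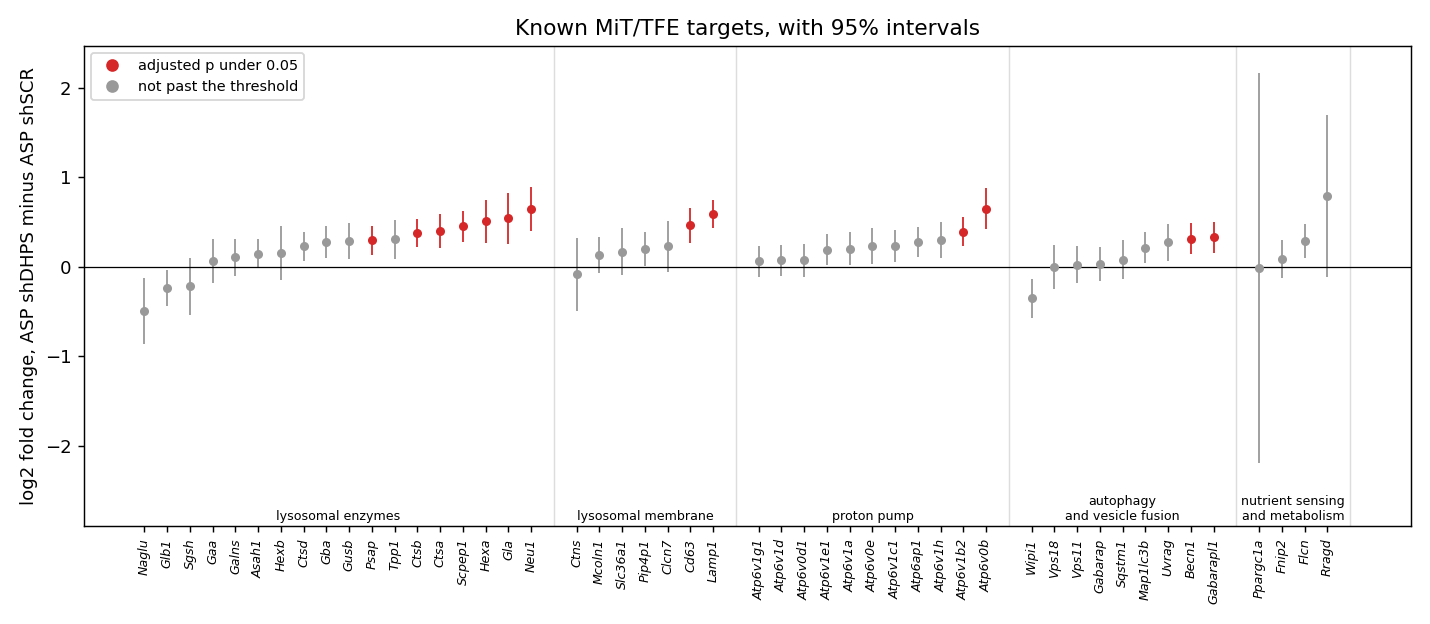
Log2 fold change in ASP shDHPS against ASP shSCR of 49 of the 50 measured known MiT/TFE targets, sorted within 5 roles, with 95% intervals as bars and red points for genes with an adjusted p under 0.05. The 13 red points are all above 0, and 7 of them are lysosomal enzymes or activators.

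In ASP shGRIN2D against ASP shSCR, 1 of 50 known targets (2.0%) was called, beside 0.425% of all genes called higher. It was *Lamp1*, at 783 CPM, mean of 3 libraries (SD, n = 3), with a log2 fold change of 0.33 (SE 0.08, adjusted p = 0.0416), and its call was lost on leaving out any 1 of the 7 libraries (adjusted p up to 0.200). Estimates were above 0 for 43 of 50 targets, with a median of 0.14. DESeq2 called 5 of the 50 higher. Between the knockdowns 1 target was called higher and 1 lower in ASP shDHPS, beside 1.2% and 1.62% of all genes. These were *Cd63* at 0.40 (adjusted p = 0.0373), lost in 5 of 7 fits without 1 library, and *Glb1*, lysosomal beta-galactosidase, at -0.38 (adjusted p = 0.0490), lost in 6 of 7. For aspartate 0 of 50 were called by edgeR or DESeq2, and 0 had an unadjusted p under 0.05. The summed level of the 50 genes was 5975 ± 138 CPM (SD, n = 4) in ASP shSCR, 6080 ± 140 (SD, n = 3) in NoASP shSCR, 6694 ± 102 (SD, n = 3) in ASP shGRIN2D and 7201 ± 394 (SD, n = 4) in ASP shDHPS. The lowest ASP shGRIN2D library (6580 CPM) and the lowest ASP shDHPS library (6836 CPM) were above the highest control library (6226 CPM).

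Targets that belong to specialised cells did not move as 1 group. Of 17 genes known as MITF targets in melanocytes, 7 were measured. *Myo5a*, which carries melanosomes, and *Bcl2*, an apoptosis inhibitor, fell in ASP shDHPS against ASP shSCR, by 0.33 and 0.53 on the log2 scale (adjusted p = 0.0496 and 0.0151), and 0 rose, beside 2.57% of all genes called lower. The *Myo5a* call was lost in 7 of 8 fits without 1 library and the *Bcl2* call in 2 of 8, namely without ASP shSCR replicate 2 or ASP shDHPS replicate 3. *Pmel*, the melanosome fibril protein and closest paralog of *Gpnmb*, was counted 1 to 15 times per library, and *Tmem130*, the other paralog, was equally rare.

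Of 9 osteoclast targets of *Mitf* and *Tfe3*, 8 were measured, and 2 were called in at least 1 comparison: 1 of 8 in ASP shGRIN2D and 2 of 8 in ASP shDHPS against ASP shSCR, and 1 of 8 between the knockdowns, beside 1.16%, 4.22% and 2.82% of all genes. *Itgb3*, the integrin beta-3 chain, was at 21.1 ± 3.75 CPM (SD, n = 4) in ASP shSCR, 34.3 ± 5.85 (SD, n = 3) in ASP shGRIN2D and 9.08 ± 1.42 (SD, n = 4) in ASP shDHPS. It rose in ASP shGRIN2D by 0.70 (SE 0.15, adjusted p = 0.0190) and fell in ASP shDHPS, with a log2 fold change of -1.22 (SE 0.15, adjusted p = 6.4e-05) against ASP shSCR and -1.92 (SE 0.16, adjusted p = 4.9e-07) against ASP shGRIN2D. The rise was lost without ASP shSCR replicate 4 (adjusted p = 0.0759), ASP shGRIN2D replicate 1 (0.207) or ASP shGRIN2D replicate 2 (0.0688). *Ostm1*, a partner of the lysosomal chloride transporter, rose in ASP shDHPS by 0.50 (SE 0.10, adjusted p = 0.00556). *Acp5*, tartrate-resistant acid phosphatase, lay between 27.2 and 34.1 CPM in all groups, and *Ctsk*, cathepsin K, stayed under 1 CPM.

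Among 10 genes whose products cleave or bind GPNMB, the sheddases, syndecan, CD44 and integrin genes were not called in any comparison by edgeR. In ASP shDHPS, 1 of the 10 was called lower against ASP shSCR and 2 against ASP shGRIN2D, beside 2.57% and 1.62% of all genes. *Cd44* was at 797 CPM in ASP shSCR and 869 CPM in ASP shDHPS, and *Sdc4* at 302.5 and 294 CPM. *Fgfr1*, a growth factor receptor, fell from 3.42 ± 1.06 (SD, n = 4) to 0.851 ± 0.310 CPM (SD, n = 4) in ASP shDHPS. It was scarce, with only 7 to 21 counts in each ASP shDHPS library. The log2 fold change was -1.97 (SE 0.30, adjusted p = 0.000514) against ASP shSCR and also -1.97 (SE 0.32, adjusted p = 0.000691) against ASP shGRIN2D. *Nrp1*, a co-receptor for VEGF, was lower in ASP shDHPS than in ASP shGRIN2D by a log2 fold change of -0.54 (adjusted p = 0.0227), a call lost without ASP shGRIN2D replicate 1 (adjusted p = 0.177), ASP shGRIN2D replicate 3 (0.0613) or ASP shDHPS replicate 3 (0.0817).

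GPNMB is also known from lipid-laden macrophages, so genes of those cells and markers of other cell types were read beside it. Of 12 measured genes of the lipid-laden macrophage list, 4 rose in ASP shDHPS against ASP shSCR and 1 fell, beside 1.65% and 2.57% of all genes. *Plin2*, the coat protein of lipid droplets, rose from 276 to 446 CPM (log2 fold change 0.70, SE 0.15, adjusted p = 0.00908), beside *Cd63*, *Ctsb* and *Ctsl*, of which *Ctsl* (0.31) lost its call in 7 of 8 fits without 1 library. *Spp1*, osteopontin, fell from 4636 to 3207 CPM, with a log2 fold change of -0.53 (SE 0.10, adjusted p = 0.0048), and was lower than in ASP shGRIN2D by -0.66 (adjusted p = 0.00139). *Fabp5*, a fatty acid binding protein, fell in ASP shGRIN2D by 0.45 (adjusted p = 0.0473), lost in 6 of 7 fits, and was higher in ASP shDHPS than in ASP shGRIN2D by 0.57 (adjusted p = 0.00515).

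Of 14 myeloid markers 8 were measured, and 0 were called in any comparison by edgeR or DESeq2 (at most 2 had an unadjusted p under 0.05). Their summed level was 12.4 to 22.4 CPM in ASP shSCR, 15.6 to 20.3 in NoASP shSCR, 14.6 to 16.9 in ASP shGRIN2D and 20.5 to 23.4 in ASP shDHPS, less than that of *Gpnmb* alone in each knockdown library. Most of it was *Cd68*, a lysosomal glycoprotein of many cell types (9.45 CPM in ASP shSCR, 13.8 CPM in ASP shDHPS), and *Cd14*, while *Lyz2* had at most 3 counts in each library. Of 8 fibroblast markers 4 were measured, with *Dcn* and *Fap* at no more than 3 counts per library. *Pdgfra*, a growth factor receptor of fibroblasts and other cells, averaged 33.1 CPM in ASP shSCR, 28.8 in NoASP shSCR, 27.5 in ASP shGRIN2D and 26.6 in ASP shDHPS and made up most of the summed level of 22.9 to 41.7 CPM. Of these markers, 0 were called by either tool (at most 2 had an unadjusted p under 0.05). Epithelial markers were abundant, in a line of mammary carcinoma origin. Their sum was 5174 ± 55.2 CPM (SD, n = 4) in ASP shSCR, 5128 ± 122 (SD, n = 3) in NoASP shSCR, 3967 ± 160 (SD, n = 3) in ASP shGRIN2D and 4165 ± 329 (SD, n = 4) in ASP shDHPS, so it was lower in both knockdowns, where *Gpnmb* was higher. Of the 8 measured, 3 fell in ASP shGRIN2D against ASP shSCR (0.732% of all genes), led by *Krt7* (-0.64, adjusted p = 0.000297). The other two, *Cldn7* and *Krt18*, lost their call on leaving out any 1 of the 3 ASP shGRIN2D libraries (adjusted p up to 0.122 and 0.147), and *Cldn7* also without ASP shSCR replicate 1. In ASP shDHPS against ASP shSCR 4 fell (2.57% of all genes), led by *Krt19* (-0.88, adjusted p = 7.7e-05), and each kept its call in all 8 fits without 1 library. Between the knockdowns 1 was higher (*Cldn7*) and 2 were lower (*Krt14* and *Krt19*) in ASP shDHPS, beside 1.2% and 1.62% of all genes, and without 1 library the *Krt19* call was lost in 7 of 7 fits and the *Cldn7* call in 5 of 7. The part of these marker differences in the *Gpnmb* result was not tested.

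Over the 14 libraries, the genes whose log2 CPM followed *Gpnmb* most closely, among 9804 genes, were *Lgmn*, *Grn*, *Lcp1*, *Lamp1* and *Grina*, with Pearson's r from 0.935 to 0.951. *Lgmn* encodes the lysosomal protease legumain, *Grn* the lysosomal glycoprotein progranulin, and *Lcp1* the actin bundler L-plastin. *Lgmn* averaged 25.5, 28.1, 29.0 and 39.4 CPM in ASP shSCR, NoASP shSCR, ASP shGRIN2D and ASP shDHPS, and *Grn* 260, 288, 297 and 370 CPM, the same order of groups as *Gpnmb*. Both were picked for their likeness to *Gpnmb* in these libraries, so the shared order is no separate result. In ASP shGRIN2D against ASP shSCR neither was called by edgeR (adjusted p = 0.536 and 0.454). The r values describe 4 groups more than 14 points, since the libraries share their group. Taken as deviations from the group means, r was 0.763 for *Lgmn*, 0.799 for *Grn*, 0.775 for *Lcp1*, 0.604 for *Grina* and 0.169 for *Lamp1*. With *Gpnmb* itself, r was -0.471 for *Mitf*, -0.198 for *Tfeb* and -0.148 for *Tfe3*, and 0.208, 0.213 and 0.228 for the deviations.

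The 3 factors had other companions. *Mitf* was closest to *Tns1*, a focal adhesion protein (r = 0.932), *Spast* (0.929) and *Il1r1*, the interleukin-1 receptor (0.913). *Tns1* averaged 10.6 CPM in ASP shSCR, 20.1 in ASP shGRIN2D and 5.20 in ASP shDHPS, the same order of these groups as *Mitf*, to which it was matched. *Tfeb* was closest to *Basp1* (0.941), *Tmie* (0.915) and *Gadd45gip1* (0.892), and *Tfe3* to *Stau1* (0.906), *Mtss2* (0.904) and *Dock6* (0.874). Between the factors r was 0.793 for *Mitf* and *Tfe3*, 0.632 for *Tfeb* and *Tfe3* and 0.264 for *Mitf* and *Tfeb*. For the deviations from the group means these values were 0.565, 0.698 and -0.089, so that of *Mitf* and *Tfeb* turned sign. With *Mitf*, r of the deviations was 0.576 for *Tns1*, 0.715 for *Spast* and 0.476 for *Il1r1*. It was 0.798, 0.795 and 0.784 for the companions of *Tfe3*, and at least 0.894 for those of *Tfeb*.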

How the data were processed

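mRNA of 4T1 spheroids, taken from the cytosolic input of polysome profiling, was sequenced in 14 stranded libraries. The sample labels gave each library's group and replicate number. Counts were made by the authors, who trimmed reads (Trim Galore 0.6.6), mapped them to GRCm39 (STAR 2.6.1), estimated gene abundance (Salmon 1.4.0), rounded it to whole counts and dropped genes not expressed in 2 or more replicates of any condition. Salmon divides shared reads by estimation, so counts of paralogs and overlapping genes are less certain. Their deposited tables of DESeq2 log2 fold changes, p-values and enrichment scores for the aspartate comparison, and a gene set file, were not used.

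Deposited counts were tested with edgeR 4.0.16 in R 4.3.3: TMM scaling (factors 0.984 to 1.02), a quasi-likelihood fit of the group to all 14 libraries and Benjamini-Hochberg adjustment over 19525 genes. Intervals are the coefficient with its standard error at the fit's degrees of freedom, at 95%. CPM were scaled by TMM, and log2 CPM used a prior count of 2. The steps were tested on simulated data. Total counts of 12731123 to 23231378 set the precision, and genes with at most 3 counts were given no fold. The members and gene lists were chosen with earlier results of these data known. Named were the 4 genes, measured regulators and partners, in each other list and comparison up to 3 called genes a direction and the most abundant markers, and the 3 to 5 genes most alike by Pearson's r among those that averaged 5 CPM or more and had a regular gene symbol. Genes outside this rule are said to be chosen after their values were seen, or are known members of a list described for their role. Exon lengths, as unions of all exons of a gene, came from GENCODE M21 and promoters from RefSeq (GRCm38.p6). No coordinates were converted. Protein sequences were not used here, and 1 known target is counted but not reported here by name or drawn.

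Same-numbered libraries were taken as paired where every correlation of their deviations from the group means was over 0.1. It was 0.514, 0.287 and 0.203 in the control groups, which were thus paired by the data (the labels give no meaning for a number), and lower than 0.1 in at least 1 pair of each other comparison. Alternatives were DESeq2 1.42.0, RLE factors, library size alone, filterByExpr (13421 genes), a robust prior, only the groups compared, the replicate block, leaving out each library and leaving out both shSCR libraries numbered 2.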

Additional observations from a re-analysis of the deposited data

Results flagged for a closer look

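The summed level of the *Gpnmb* paralogs *Pmel* and *Tmem130* in ASP shDHPS replicate 3 was 1.73 CPM, where the other 3 ASP shDHPS libraries lay between 0.533 and 0.630 CPM. Its gap to the nearest library, divided by the range of the group, was 0.919, above the critical value of 0.829 for 4 libraries. It was the only 1 of 32 groups of libraries so marked, and chance marks about 1 in 20.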

How the results depend on the processing

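Each of 16 member values (4 genes in 4 comparisons) was computed again under every alternative that applied, in 260 fits. Of these fits 247 kept the result, and 11 of the 16 values kept it throughout. A result was kept where direction and side of the threshold stayed the same. For *Gpnmb* in the comparisons with ASP shDHPS, no side of the threshold was judged. There it was kept where the direction held and the value moved by less than the SD within groups, 0.31. The totals include the 17 and 16 fits of *Gpnmb* judged in this way, all kept. A value short of the threshold also counts as kept where it stays so in the same direction. The totals are thus no measure of support for a difference. With the replicate block, *Gpnmb* for aspartate was -0.34 over 14 libraries and -0.32 in the paired control groups alone, in ASP shGRIN2D 1.24 and 1.21, and the block changed no call of the 4 genes. The *Mitf* call in ASP shDHPS against ASP shSCR was lost without both shSCR libraries numbered 2 (-0.35, adjusted p = 0.109) and in 7 of 8 fits without 1 library (range -0.47 to -0.36), fits with fewer samples. Values near 0 turned sign without 1 library: *Mitf* for aspartate ranged from -0.089 to 0.056 (0.041 without ASP shSCR replicate 3, 0.056 without NoASP shSCR replicate 4), *Tfeb* for aspartate from -0.067 (without NoASP shSCR replicate 4) to 0.14, *Tfeb* in ASP shGRIN2D from -0.026 (without ASP shGRIN2D replicate 3) to 0.066 and *Tfeb* in ASP shDHPS against ASP shSCR from -0.27 to 0.023 (without ASP shDHPS replicate 1). Of the 50 known targets, those higher in ASP shDHPS against ASP shSCR numbered 9 to 14 without 1 library and up to 21 otherwise, and those lower 0 to 1 without 1 library, 1 with DESeq2 and 2 with either replicate block. In ASP shGRIN2D against ASP shSCR, 5 were higher with DESeq2, 2 with the replicate block over 14 libraries, 0 without both libraries numbered 2 and 0 without any 1 library; 1 was lower with that block and 1 with only the groups compared. Between the knockdowns, 6 were higher with DESeq2, 3 with filterByExpr, 2 with a robust prior, 7 with the replicate block over 14 libraries, 2 with only the groups compared, 5 with both, 6 without both libraries numbered 2 and 0 to 3 without 1 library; 0 were lower with library size alone, 0 with only the groups compared and 0 to 1 without 1 library. The cause of these shifts was not tested. DESeq2 called more genes than edgeR over all genes (1398 against 824 in ASP shDHPS against ASP shSCR, 440 against 226 in ASP shGRIN2D against ASP shSCR, 920 against 550 between the knockdowns), and so did the replicate block over 14 libraries (2150, 611 and 1468). For aspartate the block called 2 genes, or 64 in the control groups alone, against 0 without it. *Grin2d* and the paralogs, at a few CPM or less, were limited by depth.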
